A study of Mus musculus with 6 samples.

Results

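Alcohol and aldehyde dehydrogenase transcripts of mouse liver were followed in 10 genes: Adh1, Adh4 and Adh5, which encode alcohol dehydrogenases, and Aldh1a1, Aldh1a7, Aldh1b1, Aldh2, Aldh3a2, Aldh7a1 and Aldh9a1, which encode aldehyde dehydrogenases. They were taken by gene name from the 54320 genes of the deposited tables, and each name matched 1 gene. All 10 were expressed well above the level required for testing, so none was lost to a filter. Livers came from C57BL/6 mice aged 11 weeks. Of the 6 libraries, 3 were labelled HKO: both alleles of the HuR gene carried loxP sites (HuR flox/flox) and an Alb-Cre transgene was present (Alb-Cre+/-), in which the albumin promoter directs Cre to hepatocytes. The other 3, labelled FF, had the same HuR flox/flox alleles without a Cre in their label. Both groups ate a diet called MCD in the labels for 3 weeks, and no group on another diet was analysed here, so every value below is from livers on that diet. HuR is an RNA-binding protein, and the comparison asks how liver transcripts differ when hepatocytes lack it.

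Alcohol dehydrogenases are zinc enzymes of the cytosol that oxidize alcohols such as ethanol and retinol to aldehydes, and aldehyde dehydrogenases turn aldehydes into carboxylic acids, both with NAD+ as the usual electron acceptor. Hepatocytes carry the largest share of this capacity in the body. The genes differ in compartment and substrate: cytosolic enzymes act on ethanol, retinoids and formaldehyde, mitochondrial enzymes on acetaldehyde, and others on fatty aldehydes or on aldehydes of lysine, choline and carnitine metabolism.

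Libraries held 16769082 to 20633215 reads in HKO and 18040015 to 18329040 in FF, recovered from the deposited FPKM values (reads scaled by the authors for gene length and library size). Reads fell on 21776 to 22067 genes in HKO and on 16608 to 20573 in FF. The lowest of these was FF 2, where mitochondrial genes took 2.26% of reads (4.34% to 4.69% elsewhere), with a correlation of 0.811 with FF 3, the lowest of any pair. Elavl1, the gene that encodes HuR, ran against the labels: it had 5.77, 4.28 and 4.91 FPKM in HKO 1, 2 and 3, against 3.51, 2.36 and 2.99 FPKM in FF 1, 2 and 3 (log2 fold change, HKO minus FF, of 0.67, limma, Benjamini-Hochberg adjusted p = 0.208). The change was 0.32 with the trend of values with gene length removed (limma, adjusted p = 0.455), and 0.13 when FF 3 was left out as well (limma, adjusted p = 0.590). Other alternative runs enlarged it: over all of them it ranged from 0.13 to 1.04, so none turned it negative. Whether the group names of the deposited values are right was not tested, and every sign below would turn if they were exchanged. Each HKO and FF below therefore means the libraries so labelled. A value for the whole gene does not single out the deleted exons. The summed FPKM of 7 hepatocyte markers overlapped, at 44881 to 57929 FPKM in HKO and 44115 to 56179 FPKM in FF. Of the 7, 5 had lower fitted values in HKO, with a median log2 fold change of -0.23. The tissue matched its label. Sums for other cell types differed. Neutrophil markers summed to 2.65 to 4.54 FPKM in HKO and 22.9 to 47.5 FPKM in FF, with all 3 tested members lower in HKO and the defining marker Ly6g at 0 throughout. Macrophage markers summed to 251 to 342 FPKM in HKO and 418 to 746 FPKM in FF (5 of 6 lower), and cholangiocyte markers to 102 to 246 FPKM in HKO and 41.4 to 68.9 FPKM in FF (6 of 6 higher). Stellate cell markers gave 85.6 to 98.8 FPKM in HKO and 72.3 to 83.8 FPKM in FF (3 of 6 higher), and endothelial markers 48.2 to 66.7 FPKM in HKO and 60.9 to 124 FPKM in FF (4 of 6 lower). Pancreatic markers summed to 7.91, 43.3 and 4555 FPKM in HKO 1, 2 and 3, against 5.01 to 12.6 FPKM in FF. Without HKO 3 the fitted values of the members kept their sign except for Aldh1a1, which turned to 0.046. In bulk liver, fewer cells of a type and less RNA per cell cannot be told apart, and the part of these differences in the results below was not tested.

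No dehydrogenase passed the test over all genes. Of the 10, 8 had lower and 2 had higher fitted values in HKO, with a median log2 fold change (HKO minus FF) of -0.22, and 0 passed the threshold over all 13787 genes tested (limma on log2(FPKM + 0.5), Benjamini-Hochberg adjusted p under 0.05; 1 member at an unadjusted p under 0.05; 0 also by limma voom on the recovered reads). Quantile, upper-quartile and total FPKM scaling of the libraries instead gave 9 higher and 1 lower, with medians of 0.25, 0.13 and 0.20, and leaving out 1 library moved the median to between -0.34 (without HKO 2) and -0.057 (without FF 1). Over all tested genes 0.0145% passed, 20.9% had an unadjusted p under 0.05, and the median was -0.0018. Genes expressed as highly as these sat lower than that: the 1850 tested genes whose mean reached that of the weakest member (24.5 FPKM) had a median of -0.45, with 25.5% of values above 0 (a description added after the values were seen). Under the same 3 scalings the median of those genes was -0.029, -0.10 and -0.034. The 3 HKO and 3 FF values did not overlap for 1 of the 10 genes, Aldh2, against 31.9% of all tested genes.

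**Figure D1:**
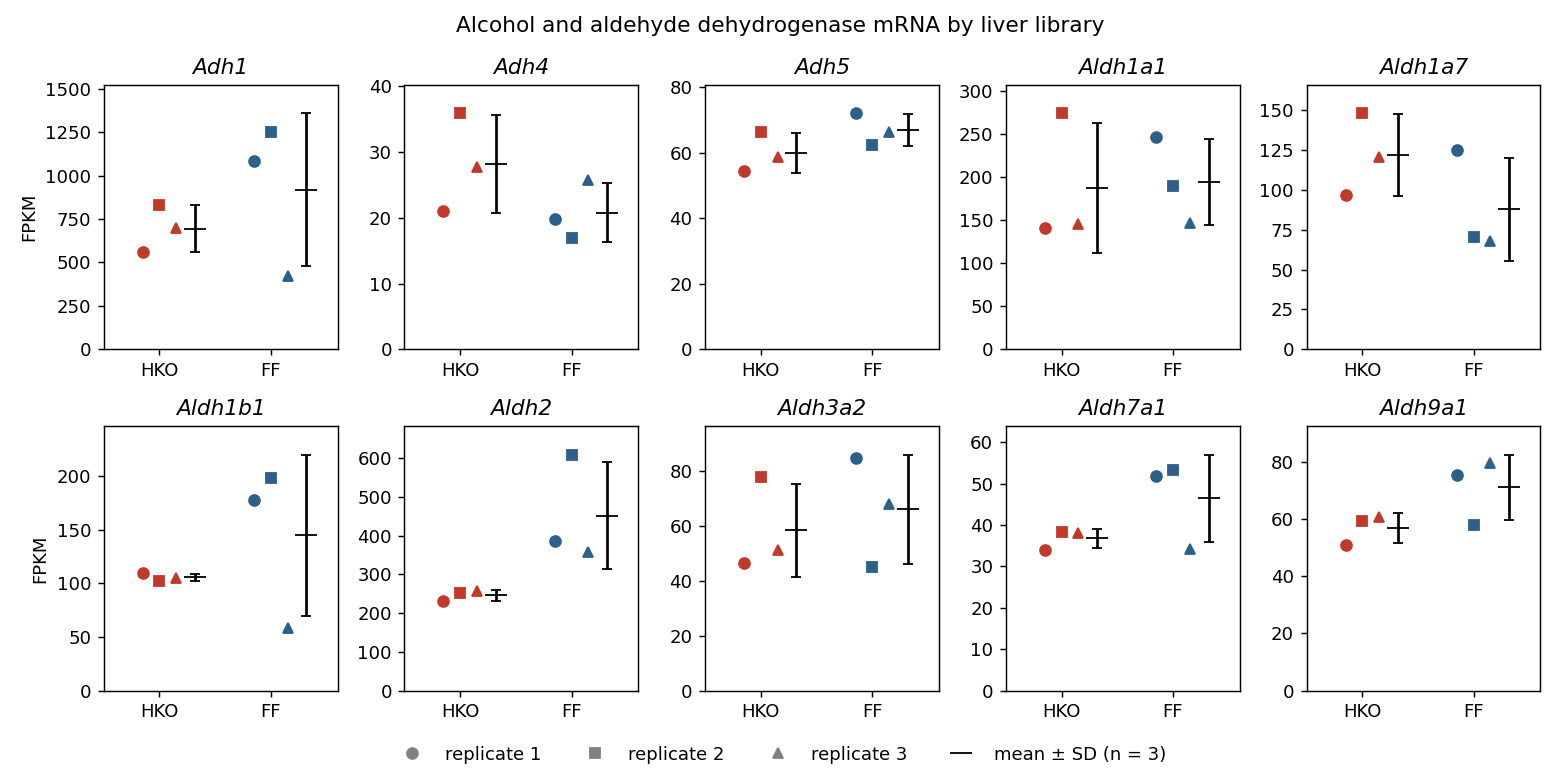
FPKM of each of the 10 genes in the 3 HKO libraries (left, red) and the 3 FF libraries (right, blue), with the mean and SD of each group in black. Aldh2 is the gene whose groups do not overlap (230.3 to 257 FPKM in HKO, 358 to 609 FPKM in FF), and FF 3 (blue triangle) lies far below FF 1 and 2 for Adh1 and Aldh1b1.

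Levels per kilobase ordered some of the genes and not others. Adh1 stood at the top with a mean of 806 FPKM over the 6 libraries and was above Aldh2 (348 FPKM) in 6 of 6. Aldh1a1 followed at 191 FPKM, Aldh1b1 at 125 FPKM and Aldh1a7 at 105 FPKM. Aldh2 was above Aldh1a1 in 5 of 6 libraries, Aldh1a1 above Aldh1b1 in 5 of 6, and Aldh1b1 above Aldh1a7 in 3 of 6, so the last pair could not be ordered. Aldh9a1, Adh5 and Aldh3a2 formed a group at 63.9, 63.3 and 62.4 FPKM in which each was above the next in 3 of 6 libraries. Aldh7a1 (41.6 FPKM) was above Adh4 (24.5 FPKM) in 6 of 6. The order also rests on the deposited gene lengths, which are the same in every library, so counts of libraries cannot show their effect. For Adh5 that length was 5408 bases, against 1125 coding and 390 3' untranslated bases in its transcript with the longest coding sequence. For Aldh1b1 it was 2298 bases, against 1560 and 581. The order under other lengths was not tested.

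The alcohol dehydrogenase genes lie in 1 cluster on chromosome 3 of GRCm38.p6, all on the plus strand: Adh1 from 138260991 to 138290698, Adh4 from 138415466 to 138430892 and Adh5 from 138443093 to 138455499. Adh1 encodes the class I enzyme, the main ethanol dehydrogenase of mouse liver, which also oxidizes retinol. It had 559, 829 and 696 FPKM in HKO 1, 2 and 3, against 1083, 1252 and 419.9 FPKM in FF 1, 2 and 3. FF 1 and 2 were above every HKO library and FF 3 was below every one. Its mean was 694 ± 135 FPKM in HKO and 918 ± 440 FPKM in FF (SD, n = 3 each), a log2 fold change of -0.27 with a 95% interval of -1.33 to 0.79 (limma, adjusted p = 0.718). Without FF 3 the change was -0.76 (limma, adjusted p = 0.0386), and without FF 2 it was 0.024 (limma, adjusted p = 0.985).

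Adh4 encodes the class II enzyme, which takes retinol and longer alcohols. It had 21.01, 35.8 and 27.6 FPKM in HKO 1, 2 and 3, against 19.7, 16.8 and 25.7 FPKM in FF 1, 2 and 3, and HKO 1 lay inside the FF range. The log2 fold change was 0.42 with a 95% interval of -0.24 to 1.08 (limma, adjusted p = 0.387), and it was 0.23 without HKO 2 and 0.61 without HKO 1. Adh5, the class III enzyme, oxidizes the glutathione adduct of formaldehyde and reduces S-nitrosoglutathione. It was the steadiest of the 3 genes, with 54.5, 66.4 and 58.6 FPKM in HKO 1, 2 and 3 and 72.0, 62.3 and 66.3 FPKM in FF 1, 2 and 3. Its log2 fold change was -0.16, with a 95% interval of -0.62 to 0.30 (limma, adjusted p = 0.623), and leaving out 1 library moved it to between -0.24 (without HKO 2) and -0.097 (without HKO 1).

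The rest of the cluster was weakly expressed or silent. Adh7, the class IV retinol dehydrogenase known mainly from stomach and skin, had 6.02 to 6.20 FPKM in HKO and 3.61 to 10.5 FPKM in FF. Adh6a was listed at 0 in every library, and Adh6b reached at most 0.0427 FPKM in HKO and 0.0979 FPKM in FF. Adh6-ps1 had 2.15 to 2.68 FPKM in HKO and 0.942 to 3.74 FPKM in FF. Adh1 had the highest FPKM of the cluster in every library. The ratio of Adh5 to Adh1 was 0.0801 to 0.0974 in HKO and 0.0498 to 0.158 in FF. The ratio of Adh4 to Adh1 was 0.0376, 0.0432 and 0.0397 in HKO 1, 2 and 3, against 0.0182, 0.0135 and 0.0611 in FF 1, 2 and 3. The HKO values were close to one another and fell between the FF values.

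Cytosolic retinal dehydrogenase is encoded by Aldh1a1, and Aldh1a7 is its rodent paralog in the same segment of chromosome 19. Aldh1a1 spans 20492715 to 20643462 on the plus strand and Aldh1a7 spans 20692953 to 20727562 on the minus strand. Their coding sequences, of 1506 bases each, were identical at 1380 positions (91.6%), whereas Aldh2 and Aldh1b1, the next most alike pair among the members, were identical at 70.1% of aligned bases. Of all 50-base words in the Aldh1a7 transcript, 7.49% also occurred in Aldh1a1, and 6.54% the other way, so a part of the reads could be shared between them and their separate values are less certain than those of the other genes. The longest coding exon of Aldh1a1 and its counterpart in Aldh1a7 show where the pair can be told apart. Each has 185 bases (GENCODE M21), and capitals mark the 29 positions at which they differ. They are shown for chr19:20630666-20630850 on the plus strand for Aldh1a1 and for chr19:20708150-20708334 on the minus strand for Aldh1a7, both GRCm38.
Aldh1a1: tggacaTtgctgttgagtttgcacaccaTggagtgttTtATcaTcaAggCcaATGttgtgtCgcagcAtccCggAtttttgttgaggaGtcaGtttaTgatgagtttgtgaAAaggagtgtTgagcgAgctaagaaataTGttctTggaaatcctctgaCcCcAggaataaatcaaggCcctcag
Aldh1a7: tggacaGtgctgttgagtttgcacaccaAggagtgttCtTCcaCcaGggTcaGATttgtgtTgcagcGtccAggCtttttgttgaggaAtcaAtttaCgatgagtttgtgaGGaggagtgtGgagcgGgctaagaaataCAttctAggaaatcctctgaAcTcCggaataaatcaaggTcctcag

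Aldh1a1 had 141, 274 and 146 FPKM in HKO 1, 2 and 3, against 247, 189 and 147 FPKM in FF 1, 2 and 3. HKO 2 was the highest of the 6 and the other HKO libraries were the lowest. The log2 fold change was -0.096, with a 95% interval of -0.91 to 0.72 (limma, adjusted p = 0.877). Aldh1a7 had 96.7, 148 and 120.5 FPKM in HKO 1, 2 and 3, against 125, 70.4 and 68.1 FPKM in FF 1, 2 and 3. Its log2 fold change of 0.51 had a 95% interval of -0.24 to 1.25 (limma, adjusted p = 0.363), and FF 1 lay within the HKO range. The change was 0.79 without FF 1 and 0.35 without FF 3.

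Set against each other within a library, which removes any scaling of the library, the pair separated the groups. The ratio of Aldh1a7 to Aldh1a1 was 0.687, 0.539 and 0.824 in HKO 1, 2 and 3, against 0.506, 0.372 and 0.462 in FF 1, 2 and 3. All 3 HKO ratios were above all 3 FF ratios, although HKO 2 and FF 1 were close. It was 1 of 6 ratios computed with the values known, of which 1 other, Aldh2 to Aldh7a1, also separated the groups (6.77, 6.58 and 6.75 in HKO 1, 2 and 3, against 7.44, 11.4 and 10.5 in FF 1, 2 and 3), and all are given as descriptions. With 3 against 3 libraries an exact two-sided permutation test cannot go below 0.1. Taken singly, 31.9% of all tested genes had groups apart, and the share among ratios of other genes was not computed.

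The region before each gene's start is alike as well. RefSeq (GRCm38.p6) gives 2 starts for Aldh1a1, and the window of 250 bases before to 50 after the second start matched that of Aldh1a7 at 221 bases once aligned (73.7% of the window), including an unbroken run of 65 bases. At the first start of Aldh1a1 the share was 55.7%. Both similar windows hold the octamer ATGCAAAT 56 bases before the start, a motif found on either strand in 1.74% of 32851 mouse promoter windows and in 2 of the 10 windows that matched 8 of the members by symbol. CCAAT, also on either strand, was found in 37.4% of all windows and in 6 of those 10. Capitals mark both motifs in the windows chr19:20601718-20602017 on the plus strand for Aldh1a1 and chr19:20727507-20727806 on the minus strand for Aldh1a7. They are shown because 2 genes with such similar starts had fitted values of opposite sign in the main fit, neither of which passed the threshold. The opposite signs did not hold throughout: the value of Aldh1a1 turned positive in 6 of 22 alternative runs, and that of Aldh1a7 stayed positive in all. Several of the 22, such as other filters and moderations, leave the fitted values as they are and could not turn a sign.
Aldh1a1: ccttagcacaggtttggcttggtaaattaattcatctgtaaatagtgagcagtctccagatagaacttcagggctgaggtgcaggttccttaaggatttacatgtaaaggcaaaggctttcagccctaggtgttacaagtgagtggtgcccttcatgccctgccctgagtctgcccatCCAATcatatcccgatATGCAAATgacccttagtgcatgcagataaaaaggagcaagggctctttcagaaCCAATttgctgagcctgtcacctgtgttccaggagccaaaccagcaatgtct
Aldh1a7: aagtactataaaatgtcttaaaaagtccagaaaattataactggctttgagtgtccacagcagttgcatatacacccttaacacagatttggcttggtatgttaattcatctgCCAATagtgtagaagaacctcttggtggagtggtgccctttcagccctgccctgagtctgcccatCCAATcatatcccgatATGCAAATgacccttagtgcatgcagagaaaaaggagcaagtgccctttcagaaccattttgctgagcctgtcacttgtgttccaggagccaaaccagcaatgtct

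**Figure D2:**
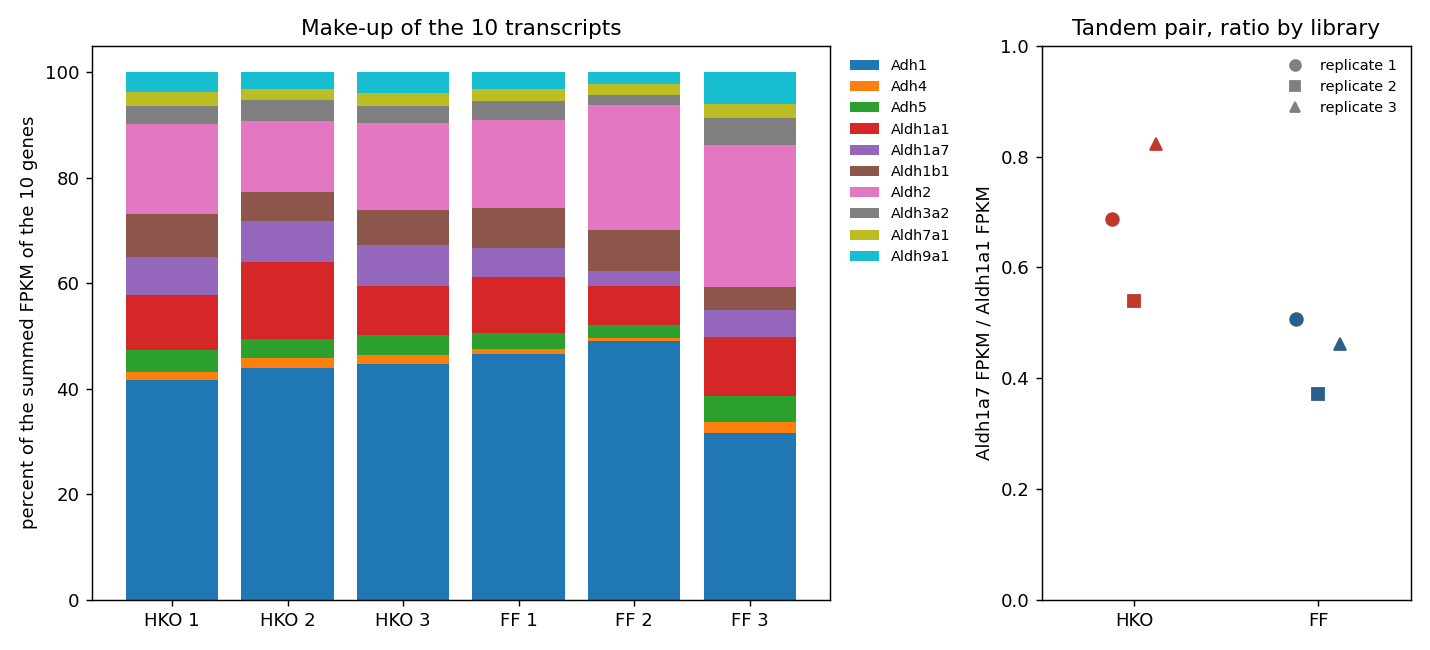
Left, percent of the summed FPKM of the 10 genes taken by each gene in each library, HKO before FF; right, the ratio of Aldh1a7 to Aldh1a1 FPKM in each library. Adh1 takes the largest share everywhere (41.6% to 44.6% in HKO, 31.7% to 49.0% in FF), FF 3 has the largest Aldh2 share (27.0%), and the HKO ratios (0.539 to 0.824) lie above the FF ratios (0.372 to 0.506).

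Mitochondrial aldehyde dehydrogenase, the enzyme that clears most acetaldehyde made from ethanol, is encoded by Aldh2 (chromosome 5, 121566027 to 121593824, minus strand). It was lower in all 3 HKO libraries than in any FF library: 230.3, 252 and 257 FPKM in HKO 1, 2 and 3, against 385, 609 and 358 FPKM in FF 1, 2 and 3. The HKO values lay within 1.11-fold of one another and the FF values within 1.70-fold. Means were 246 ± 14.0 FPKM in HKO and 450.4 ± 138 FPKM in FF (SD, n = 3 each). The log2 fold change of -0.83, (SE 0.27, 95% interval -1.46 to -0.20) corresponds to 0.563 of the FF level, but did not pass over all genes (limma, adjusted p = 0.1995, unadjusted p = 0.0176). Its sign was negative under every alternative run, from -1.15 to -0.31, with adjusted p from 0.0249 to 0.526. Some of those runs, such as other filters and moderations, cannot change a fitted value. The adjusted p was under 0.05 only without FF 3, at -0.97 (limma, adjusted p = 0.0249), or at -1.15 when the trend with gene length was removed too (limma, adjusted p = 0.0252).

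Aldh1b1, its mitochondrial relative with a wider range of aldehydes and a retinal dehydrogenase activity, lies on chromosome 4 from 45799022 to 45804604. It was nearly constant in HKO, with 109, 103 and 104 FPKM in HKO 1, 2 and 3, against 178, 198 and 58.8 FPKM in FF 1, 2 and 3. As for Adh1, FF 1 and 2 were above every HKO library and FF 3 was below. The highest FF value was 3.36 times the lowest, against 1.06 times in HKO. The log2 fold change was -0.27 with a 95% interval of -1.38 to 0.83 (limma, adjusted p = 0.730). It was -0.83 without FF 3 (limma, adjusted p = 0.0161) and 0.042 without FF 2 (limma, adjusted p = 0.971). The ratio of Aldh2 to Aldh1b1 was 2.11 to 2.46 in HKO and 2.16, 3.08 and 6.08 in FF 1, 2 and 3, so the mitochondrial pair did not keep a fixed proportion among the FF libraries.

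Aldh3a2 encodes the fatty aldehyde dehydrogenase of the endoplasmic reticulum, whose loss in humans causes Sjögren-Larsson syndrome. It lies on chromosome 11 from 61223417 to 61267464. Its values interleaved, with 46.4, 78.0 and 51.2 FPKM in HKO 1, 2 and 3 and 85.1, 45.3 and 68.2 FPKM in FF 1, 2 and 3 (log2 fold change -0.17, 95% interval -0.93 to 0.60, limma, adjusted p = 0.766). Aldh7a1, on chromosome 18, oxidizes the semialdehyde of lysine breakdown and betaine aldehyde. It had 34.0, 38.3 and 38.0 FPKM in HKO 1, 2 and 3, against 51.8, 53.3 and 34.2 FPKM in FF 1, 2 and 3, the same arrangement as Adh1 except that FF 3 lay just above HKO 1. The log2 fold change of -0.31 had a 95% interval of -0.88 to 0.27 (limma, adjusted p = 0.455), and was -0.51 without FF 3 (limma, adjusted p = 0.0422). Aldh9a1, the aldehyde dehydrogenase of carnitine synthesis (chromosome 1, 167349991 to 167368532), had 50.9, 59.1 and 60.6 FPKM in HKO 1, 2 and 3, against 75.3, 57.9 and 79.7 FPKM in FF 1, 2 and 3. FF 2 alone lay within the HKO range, and the log2 fold change was -0.31 with a 95% interval of -0.82 to 0.21 (limma, adjusted p = 0.414).

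**Figure D3:**
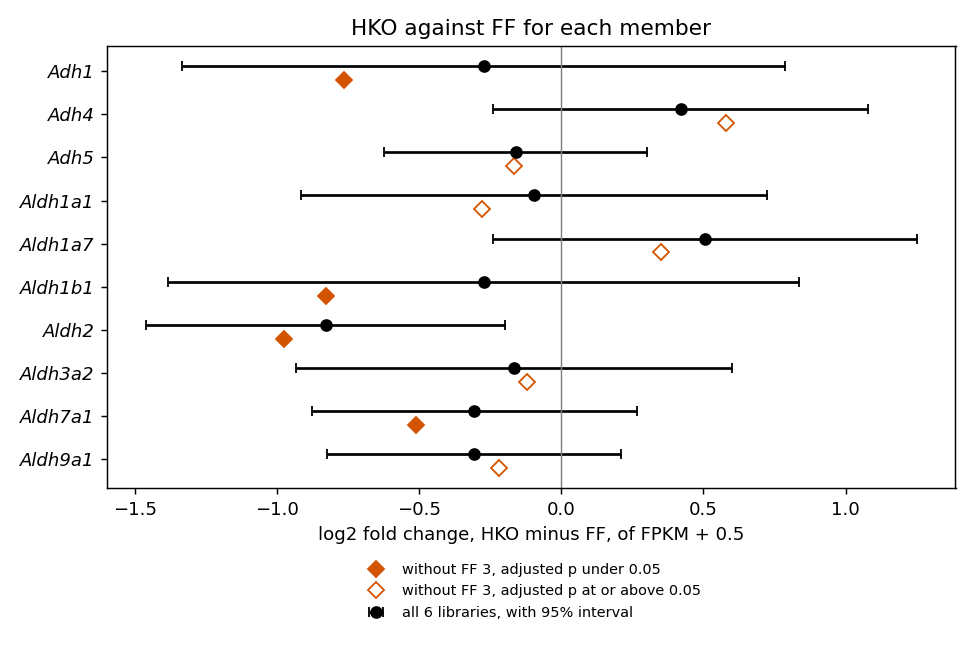
Log2 fold change, HKO minus FF, of each gene on the log2(FPKM + 0.5) scale. Black points and bars give the fit to all 6 libraries with its 95% interval, and diamonds the fit without FF 3, filled where the adjusted p is under 0.05. The interval leaves out 0 for Aldh2 (-1.46 to -0.20), and Adh1, Aldh1b1, Aldh2 and Aldh7a1 have filled diamonds.

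One library decided how many of these genes were called. Without FF 3, limma called Adh1, Aldh1b1, Aldh2 and Aldh7a1 lower in HKO, 4 of the 10. Without that library 40.4% of all tested genes were called, 19.4% as lower, and of the 1850 genes at or above the lowest member mean 45.1% were called lower. When each library's trend with gene length was removed as well, 4 were again called, against 33.4% of all tested genes, with Adh4 (0.98, limma, adjusted p = 0.0395) in place of Adh1 (-0.48, limma, adjusted p = 0.105). FF 3 also had the highest sums of endothelial (124 FPKM), pericentral (4694 FPKM) and periportal markers (2215 FPKM) of the 6 libraries. Cyp2e1 alone gave 3958 FPKM of its pericentral sum. The part of these markers in the calls was not tested. FF 3 was the lowest FF library for 6 of the 10 genes and the highest for 2. Among HKO libraries, HKO 1 was lowest for 9 of 10 and HKO 2 highest for 7 of 10. The FF libraries spread more than the HKO libraries for 7 of the 10 genes, against 89.3% of all tested genes. The median SD of the log2 values was 0.21 in HKO and 0.39 in FF for the members, and 0.15 in HKO and 0.52 in FF over all tested genes.

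The sum of the 10 transcripts was 1343, 1883 and 1560 FPKM in HKO 1, 2 and 3, against 2322, 2554 and 1326 FPKM in FF 1, 2 and 3. FF 3 was the lowest of all 6. As a percent of all FPKM in the library the sum was 0.384, 0.512 and 0.388 in HKO 1, 2 and 3, against 0.511, 0.462 and 0.270 in FF 1, 2 and 3, so the groups overlapped here too. The sign of most fitted values depended on how libraries were scaled. Quantile normalization, upper-quartile scaling and scaling to total FPKM each turned the same 7 fitted values (Adh1, Adh5, Aldh1a1, Aldh1b1, Aldh3a2, Aldh7a1 and Aldh9a1) from below to above 0. Upper-quartile and total scaling also moved the median of all tested genes, to 0.28 and 0.34. Those 7 and Aldh2 lay below that median under both. Under each of the 3, Adh4 and Aldh1a7 stayed above 0 and Aldh2 below it.

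**Figure D4:**
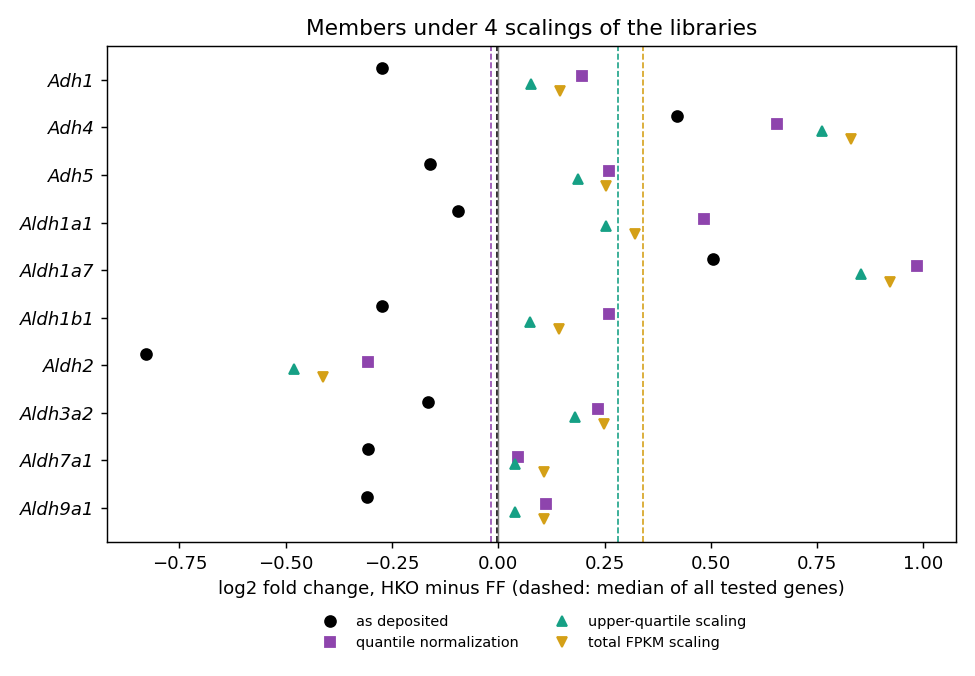
Log2 fold change, HKO minus FF, of each gene with the deposited scaling and with 3 other scalings of the libraries, beside the median of all tested genes under each (dashed lines, at 0.28 for upper-quartile and 0.34 for total FPKM scaling). Aldh2 is below 0 under all 4, Adh4 and Aldh1a7 are above 0 under all 4, and the other 7 change sign.

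Other genes of the family and its pathways were read from lists chosen by function, and none of their members passed over all genes in limma's fit. Of 18 further alcohol and aldehyde dehydrogenases 10 were tested, 5 with positive and 5 with negative values and a median of 0.0072. The smallest p belonged to Aldh3b1, which oxidizes aldehydes from lipid peroxidation, with 3.27, 2.71 and 3.08 FPKM in HKO 1, 2 and 3 and 8.32, 9.51 and 2.99 FPKM in FF 1, 2 and 3 (limma, adjusted p = 0.248). Here again FF 3 lay with the HKO libraries. Aldh6a1, the methylmalonate semialdehyde dehydrogenase of valine breakdown, had 37.0, 43.1 and 43.2 FPKM in HKO 1, 2 and 3 and 19.9, 9.49 and 48.3 FPKM in FF 1, 2 and 3 (limma, adjusted p = 0.332).

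Of 7 other genes of ethanol, acetate and formaldehyde handling 6 were tested, 3 with positive and 3 with negative values and a median of -0.058. Of the 6, 0 had an unadjusted p under 0.05, against 20.9% of all tested genes. Acss2, which activates acetate, the product of Aldh2, to acetyl-CoA, had 3.09, 4.52 and 4.16 FPKM in HKO 1, 2 and 3, against 2.72, 2.49 and 2.67 FPKM in FF 1, 2 and 3. Every HKO value was above every FF value (log2 fold change 0.49, limma, adjusted p = 0.249). Groups were apart for 1 of the 6 tested genes, against 31.9% of all tested genes. With the trend with gene length removed the change was 0.14 (limma, adjusted p = 0.756), and it turned to -0.051 when FF 3 was also left out. Esd, the hydrolase that follows Adh5 in formaldehyde removal, had 45.6, 55.8 and 51.8 FPKM in HKO 1, 2 and 3, against 89.4, 84.1 and 48.9 FPKM in FF 1, 2 and 3 (log2 fold change -0.49, limma, adjusted p = 0.337).

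Retinoid metabolism, which shares substrates with Adh1, Adh4 and Aldh1a1, had 20 of 22 listed genes tested, 14 with positive and 6 with negative values and a median of 0.11. At an unadjusted p under 0.05 there were 3 of 20, against 20.9% of all tested genes. Dhrs9, a short-chain dehydrogenase active on retinol and steroids, had 6.42, 4.03 and 4.70 FPKM in HKO 1, 2 and 3, against 1.96, 0.537 and 1.37 FPKM in FF 1, 2 and 3. Its lowest HKO value was above its highest FF value (log2 fold change 1.70, limma, adjusted p = 0.157). Dhrs4, a peroxisomal enzyme that reduces retinal, had 51.1, 59.2 and 57.5 FPKM in HKO 1, 2 and 3, against 100.4, 112 and 86.0 FPKM in FF 1, 2 and 3 (log2 fold change -0.82, limma, adjusted p = 0.162), and its groups were apart as well. Groups were apart for 3 genes as higher and 3 as lower in HKO among the 20, against 31.9% of all tested genes.

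The neighbours of Aldh7a1 and Aldh9a1 in lysine, carnitine and choline oxidation had 7 positive and 5 negative values among 12 tested, with a median of 0.14. At an unadjusted p under 0.05 there were 0 of them, against 20.9% of all tested genes. Tmlhe, which starts carnitine synthesis, had 3.57, 4.79 and 4.37 FPKM in HKO 1, 2 and 3 and 2.18, 0.221 and 4.55 FPKM in FF 1, 2 and 3. Dmgdh, the dimethylglycine dehydrogenase, had 107 to 133 FPKM in HKO and 77.5 to 129 FPKM in FF. Around Aldh3a2, 5 of 6 listed genes were tested with 3 positive and 2 negative values and a median of 0.48. Again 0 had an unadjusted p under 0.05, against the same share of all tested genes. Hacl1, a lyase of fatty acid alpha-oxidation that releases fatty aldehydes, had 1.21, 2.18 and 2.05 FPKM in HKO 1, 2 and 3, against 3.57, 2.58 and 32.0 FPKM in FF 1, 2 and 3, so that its groups were apart and FF 3 stood far above FF 1 and 2. Far1, which makes fatty alcohols for ether lipids, had 0.921 to 0.966 FPKM in HKO and 0.347 to 0.681 FPKM in FF, also without overlap. Of the 5 tested genes around Aldh3a2, groups were apart for 1 as higher and 1 as lower in HKO, against 31.9% of all tested genes.

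Aldehyde reductases and oxidases, the other routes for aldehydes, had 10 of 12 tested values negative, with a median of -0.61. None passed, and 3 had an unadjusted p under 0.05, 2 lower and 1 higher in HKO, a share near the 20.9% of all tested genes. Akr1b7 had 5.76, 2.76 and 2.82 FPKM in HKO 1, 2 and 3, against 14.1, 5.68 and 11.6 FPKM in FF 1, 2 and 3 (log2 fold change -1.34, limma, adjusted p = 0.195). Akr1b8, a relative in the same aldo-keto reductase subfamily, had 3.13, 2.68 and 2.44 FPKM in HKO 1, 2 and 3, against 6.74, 7.75 and 3.27 FPKM in FF 1, 2 and 3 (log2 fold change -0.91, limma, adjusted p = 0.214). Aox3, an aldehyde oxidase, had 9.13, 15.3 and 14.3 FPKM in HKO 1, 2 and 3, against 8.84, 7.12 and 3.55 FPKM in FF 1, 2 and 3, without overlap (log2 fold change 0.99, limma, adjusted p = 0.219), and is named here after its values were seen. Of the 12 tested, groups were apart for 1 as higher and 1 as lower in HKO, against 31.9% of all tested genes.

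HuR is known to bind AU-rich and U-rich stretches of mRNA, so the 3' untranslated regions of the members were searched on the sense strand for ATTTA, for TATTTAT, which contains it, and for TTTTTTT (GENCODE M21, the transcript with the longest coding sequence per gene). TATTTAT and TTTTTTT were found in none of the 10; among tested genes with regions of like length (0.8 to 1.25 times each member's), 4.45% to 37.8% held TATTTAT and 6.37% to 62.3% held TTTTTTT. The pentamer ATTTA occurred 3 times in Aldh3a2, 2 times each in Adh4 and Aldh7a1, 1 time each in Adh5, Aldh1a7, Aldh1b1 and Aldh9a1, and not in Adh1, Aldh1a1 or Aldh2. The region of Aldh2 is the longest, with 1964 bases, and 91.0% of 1649 tested genes with regions of like length held at least 1 ATTTA. The share was 24.1% for the 143 bases of Adh4 and 77.6% for the 1114 bases of Aldh3a2, and it lay between 23.1% and 74.4% for the other 7. A match is no evidence of binding, and its absence says only that these letters do not occur in this transcript. Sites of Adh4 (chromosome 3) and of Aldh3a2 (chromosome 11, the most matches) are given with ATTTA in capitals.
Adh4 site 1: tgtctggatgATTTAttacctcaca
Adh4 site 2: gaaagcctgcATTTAcactttgtat
Aldh3a2 site 1: tttattacacATTTAcacagcaaac
Aldh3a2 site 2: cagaagtcacATTTAacctgagcat
Aldh3a2 site 3: ctgactcataATTTAgattagtacc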

How the data were processed

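RNA was extracted with TriPure from frozen livers and made into Illumina libraries, per the labels' protocols. TopHat2, HTSeq 0.6.1 and the build GRCm38.p6 are listed, per the submitters' processing notes. The authors deposited FPKM values in 1 table per group, per the file headers, with gene length (other columns give names and positions). FPKM times gene length gave whole multiples of 1 read for 100% of values above 0 (tolerance 0.01 of a read), and the library sizes inside the values were proportional to median-of-ratios size factors over the 6 libraries. Depth was 16769082 to 20633215 reads, and each member had at least 393 reads in every library. Neither read length nor strand of counting is stated.

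The 13787 genes averaging 0.5 FPKM or more were fitted on log2(FPKM + 0.5) with limma 3.58.1 in R 4.3.3, with group as the only term and a mean-variance trend, two-sided, with Benjamini-Hochberg adjustment at 0.05. A log2 fold change is HKO minus FF. The code was tested on simulated reads, with less spread than the real libraries and larger changes than those of the members. That test does not show which changes these libraries could reveal. Alternatives were 2 pseudocounts, 2 filters, 3 scalings, 2 moderations, a replicate block, protein-coding genes alone, subtraction of a lowess curve of log2 value on gene length per library, limma voom on recovered reads, a threshold of 0.1 and leaving out each library. Removing the length trend without FF 3 was added after seeing the data. Named genes were the members, Elavl1 and, of each list, those past the threshold or else the 2 with the smallest p. The members and lists were chosen with earlier results of these data known. Figures were drawn with matplotlib 3.10.9, and coding sequences were aligned with Biopython 1.88.

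Pericentral markers summed to 1866 to 2804 FPKM in HKO and 1953 to 4694 FPKM in FF (4 of 6 higher in HKO). Periportal markers summed to 1122 to 1471 FPKM in HKO and 1048 to 2215 FPKM in FF (5 of 6 lower in HKO). The pericentral marker Cyp2e1 alone had 1148 to 1934 FPKM in HKO and 1580 to 3958 FPKM in FF. The labels do not say whether each library is a separate mouse, so p-values measure the spread between these libraries, which may be partly technical. Of the marker lists, 7 of 8 hepatocyte and 5 of 6 pancreatic genes were matched by name.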

Additional observations from a re-analysis of the deposited data

How the results depend on the processing

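Pseudocounts, filters, moderation, protein-coding genes alone, the length trend, the threshold of 0.1 and voom left the sign of all 10 members and the count of 0 members past the threshold as they were. Of these, filters, moderation, protein-coding genes alone and the threshold cannot change a fitted value. Only pseudocounts, the length trend and voom could have turned a sign. Under quantile normalization, upper-quartile scaling and total FPKM scaling, in that order, the log2 fold changes became 0.20, 0.077 and 0.14 for Adh1, 0.26, 0.19 and 0.25 for Adh5, 0.48, 0.25 and 0.32 for Aldh1a1, 0.26, 0.075 and 0.14 for Aldh1b1, 0.23, 0.18 and 0.25 for Aldh3a2, 0.046, 0.040 and 0.11 for Aldh7a1, and 0.11, 0.040 and 0.11 for Aldh9a1, and the median of the members 0.25, 0.13 and 0.20. Upper-quartile and total FPKM scaling divide all genes of a library by 1 factor, so the members moved together. Under total FPKM scaling Adh4 went from 0.42 to 0.83 and Aldh2 from -0.83 to -0.41. Summed FPKM was 350134 to 402169 in HKO and 454792 to 553124 in FF. Why these sums differ was not tested.

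Leaving out 1 library at a time gave log2 fold changes of -0.76 to 0.024 for Adh1, -0.41 to 0.092 for Aldh1a1, -0.83 to 0.042 for Aldh1b1, -0.41 to 0.037 for Aldh3a2, 0.23 to 0.61 for Adh4, -0.24 to -0.097 for Adh5, 0.35 to 0.79 for Aldh1a7, -0.97 to -0.59 for Aldh2, -0.51 to -0.19 for Aldh7a1 and -0.45 to -0.22 for Aldh9a1. It gave 0 to 4 members and 0 to 5575 genes past the threshold, against 2 genes with all 6 libraries; the 0 came without FF 1 or without HKO 2 (1904 and 1236 genes at an unadjusted p under 0.05), and the 4 and 5575 without FF 3. Without FF 3 and with the length trend removed, 4598 genes and 4 members passed, and Acss2 had -0.051. Genes past the threshold numbered 1 under upper-quartile scaling, 5 under total FPKM scaling and 16 at a threshold of 0.1.

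With the replicate block 1 gene passed, and 1 with the block and the length correction together, with 0 members in both. The labels give both groups the same numbers, but the deviations of same-numbered libraries had correlations of -0.042, -0.090 and 0.070 across genes, and HKO 1 and HKO 2 each correlated more with another number, so the block is given here only. The 95% intervals of the members were 0.93 to 2.22 log2 units wide.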
